A study of Mus musculus with 9 samples.

Results

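Dbp, Tef, Hlf, Nfil3, Usp2 and Wee1 are output genes of the liver circadian clock, and their transcripts were followed in livers of diabetic STAM mice, a model of fatty liver disease and liver cancer, with and without insulin, and in livers of normal mice. The 6 genes were found on the array by the RefSeq accession of each probe, which gave 7 of the 55681 probes, with 2 probes for Dbp and 1 for each other gene. All 7 probes were tested and were well above background on all 9 arrays. The genes had been picked because most of them differed between insulin-treated and untreated mice in these same arrays, so that contrast is given below as a description with no test. The comparison of insulin-treated with normal mice uses the same insulin-treated arrays, so its p-values below are not independent of that choice.

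The data were 9 one-colour Agilent arrays of liver RNA from male mice of the C57BL/6J type at 20 weeks of age, 3 mice in each of 3 groups. STAM mice received a low dose of streptozotocin, a toxin of insulin-secreting cells, shortly after birth and then a high-fat diet from weaning, and they develop diabetes, steatohepatitis and liver tumours. STAM-NON mice were STAM mice left untreated, and STAM-INS mice were STAM mice given 2 subcutaneous injections a day of insulin glargine, a long-acting insulin, at a dose set by blood glucose. Normal mice had neither streptozotocin nor the high-fat diet and ate normal chow. Streptozotocin and the high-fat diet are thus shared by both STAM groups and absent from Normal, and their shares in a difference from Normal cannot be told apart. The time of day at which each liver was taken, and the tumour content of each piece, are not given in the sources used here. The labels number the mice within a group and say nothing of litters or days.

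The circadian clock is a feedback loop in which Clock and Bmal1 (named Arntl here) switch on genes through E-box elements, among them the Per and Cry genes, whose proteins shut the pair off again. Dbp, Tef and Hlf are the PAR bZIP transcription factors, which carry this rhythm from the loop to metabolic genes by binding D-box elements. Nfil3 (also named E4bp4) binds the same elements and represses, and in liver it normally peaks when Dbp is low. Usp2 is a ubiquitin protease and Wee1 a kinase that holds Cdk1 inactive and so delays mitosis, and both are known as rhythmic liver transcripts under clock control.

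To show where the clock could contact these genes, promoter windows of 300 bases, from 250 bases before to 50 after the start of transcription, were taken from RefSeq (GRCm38.p6) for Dbp, Tef, Hlf, Nfil3 and Usp2, with 2 windows for Tef, and not for Wee1. The E-box CACGTG lay in 7.15% of all 32851 windows. Among these genes it was found only in Tef, once in each of its windows, on chromosome 15 and the plus strand. The first stretch lies at chr15:81802519-81802578 and the second at chr15:81811249-81811308, and the capitals mark the E-box, whose first base is 127 and 138 bases before the respective start.
Tef, first start: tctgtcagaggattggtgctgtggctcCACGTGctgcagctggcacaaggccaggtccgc
Tef, second start: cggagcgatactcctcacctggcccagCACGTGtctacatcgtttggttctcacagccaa
The D-box TTANGNAA was found in 11.5% of all windows and the RORE, the site bound by Rev-erb receptors, in 0.384%, on either strand, and neither was found in the windows of Dbp, Tef, Hlf, Nfil3 or Usp2. That says only that these letters are not in these windows. The E-box reads the same on both strands.

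Each level is a centred log2 signal, which is the log2 processed signal of the spot after subtraction of the 75th percentile of its array, so that 0 is the level of that percentile. Levels are compared between groups for the same probe only. Between 46.2% and 65.0% of spots were well above background per array and no spot was saturated. The hepatocyte genes Alb, Ttr, Apoa1, Apoh, Hnf4a, Cps1 and Tat were all measured, and their summed linear level was 2134 to 2843 in STAM-NON, 2768 to 3023 in STAM-INS and 3248 to 3425 in Normal, in multiples of the 75th percentile signal. The 6 measured macrophage markers summed to 179 to 307 in STAM-NON, 146 to 349 in STAM-INS and 84.9 to 129 in Normal, and 2 of the 6 (Clec4f and Cd5l) passed as higher in both STAM groups against Normal. All 6 were above Normal in both STAM groups, and 5 of 6 had an unadjusted p under 0.05 by limma in each. Of the hepatocyte genes, 1 of 7 (Cps1) passed as lower in both, by -0.67 in each. By limma, 4 of 7 had an unadjusted p under 0.05 in STAM-NON against Normal and 1 in STAM-INS. The median difference of the 7 from Normal was -0.34 in STAM-NON and -0.23 in STAM-INS. Over all tested probes, 6.30% passed as higher and 9.76% as lower in STAM-NON against Normal. The shares for STAM-INS against Normal were 5.16% and 8.73%. Of 3 tested cholangiocyte markers, Sox9 passed as higher in both (0.96 in STAM-NON and 1.57 in STAM-INS), and Krt7, detected on 1 of 3 Normal arrays, in STAM-NON (1.55). Their summed level was 0.931 to 1.67 in STAM-NON, 1.22 to 1.39 in STAM-INS and 0.393 to 0.971 in Normal. None of the 6 stellate cell and fibroblast, 4 endothelial, 3 lymphocyte or 4 proliferation markers tested passed by limma in any comparison, and 3, 1, 0 and 2 of them had an unadjusted p under 0.05 for STAM-NON against Normal. The summed levels of the 4 proliferation markers were 1.62 to 6.63, 2.16 to 10.4 and 1.24 to 1.74 in the same order of groups. The part of cell composition in the results below was not tested. In whole liver, fewer cells of a type and less RNA per cell cannot be told apart. All Normal arrays were on a slide of their own with its own scan, so slide and group cannot be told apart in any difference from Normal, whereas the 6 STAM arrays shared a slide.

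Dbp, the most rhythmic of the 3 PAR bZIP factors in liver, was lowest in STAM-INS. Its leading probe (the one with the higher mean) read 6.36, 6.58 and 6.72 in Normal, 5.98, 6.12 and 5.51 in STAM-NON, and 3.42, 2.30 and 3.42 in STAM-INS. The 3 groups did not overlap, and every STAM-INS array lay more than 2 log2 units below every other array. STAM-INS was 11.3-fold lower than Normal, a difference of -3.50 (SE 0.31, limma adjusted p 0.00176). The other Dbp probe gave -3.58 for the same difference. Against STAM-NON the difference was -2.82 (SE 0.31) by the leading probe and -3.09 by the other, and STAM-INS replicate 2 was the lowest array by both.

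Tef followed Dbp with a smaller range. It read 6.88, 6.87 and 6.96 in Normal, 6.19, 6.55 and 6.36 in STAM-NON, and 4.95, 4.74 and 5.29 in STAM-INS. The groups again fell in the order Normal, STAM-NON, STAM-INS with no overlap. STAM-INS was 3.75-fold lower than Normal, a difference of -1.91 (SE 0.16, limma adjusted p 0.00173), and it differed from STAM-NON by -1.37 (SE 0.16).

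Hlf, the third PAR bZIP factor, had the smallest differences of STAM-INS from either group. Its values were 2.60, 2.47 and 2.58 in Normal, 1.88, 2.43 and 2.11 in STAM-NON, and 1.69, 1.59 and 2.14 in STAM-INS. The 2 STAM groups overlapped, since STAM-INS replicate 3 was above STAM-NON replicates 1 and 3, while every Normal array was above every STAM array. STAM-INS was 1.67-fold lower than Normal, a difference of -0.74 (SE 0.19, limma adjusted p 0.0349). This call did not hold under 8 of the 21 alternatives run for it, among them leaving out STAM-INS replicate 1 (adjusted p 0.0914), STAM-INS replicate 2 (0.124) or Normal replicate 1, 2 or 3 (0.0996, 0.0780 and 0.103), all from limma. The difference from STAM-NON was -0.33 (SE 0.19).

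Nfil3, the repressor at the same DNA elements, went the other way. It read 3.25, 2.53 and 2.89 in Normal, 2.76, 2.95 and 2.72 in STAM-NON, and 4.19, 4.42 and 4.04 in STAM-INS. Normal and STAM-NON were intermingled, and all 3 STAM-INS arrays lay above all 6 others. STAM-INS was 2.52-fold higher than Normal, a difference of 1.33 (SE 0.19, limma adjusted p 0.00579), and 1.41 (SE 0.19) above STAM-NON. STAM-INS replicate 2 held the highest Nfil3 and the lowest Dbp and Tef of all 9 arrays.

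Usp2 spanned a range as wide as that of Dbp. The centred signals were 3.41, 3.40 and 3.69 in Normal, 2.52, 3.19 and 2.66 in STAM-NON, and -0.96, 0.02 and 0.66 in STAM-INS. Here STAM-INS replicate 1 was the lowest, and the SD in STAM-INS (0.82, n = 3) was larger than in Normal (0.16) or STAM-NON (0.35). STAM-INS was 12.1-fold lower than Normal, a difference of -3.59 (SE 0.37, limma adjusted p 0.00236), and it differed from STAM-NON by -2.88 (SE 0.37).

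Wee1 had the tightest STAM-INS group of the 6 genes. Normal livers read 1.61, 1.17 and 1.35, STAM-NON livers 0.94, 1.09 and 0.70, and STAM-INS livers -1.44, -1.26 and -1.16. No groups overlapped, and the gap between the lowest STAM-NON and the highest STAM-INS array was wider than the range within any group. STAM-INS was 6.33-fold lower than Normal, a difference of -2.66 (SE 0.16, limma adjusted p 0.000575), and the difference from STAM-NON was -2.19 (SE 0.16).

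**Figure D1:**
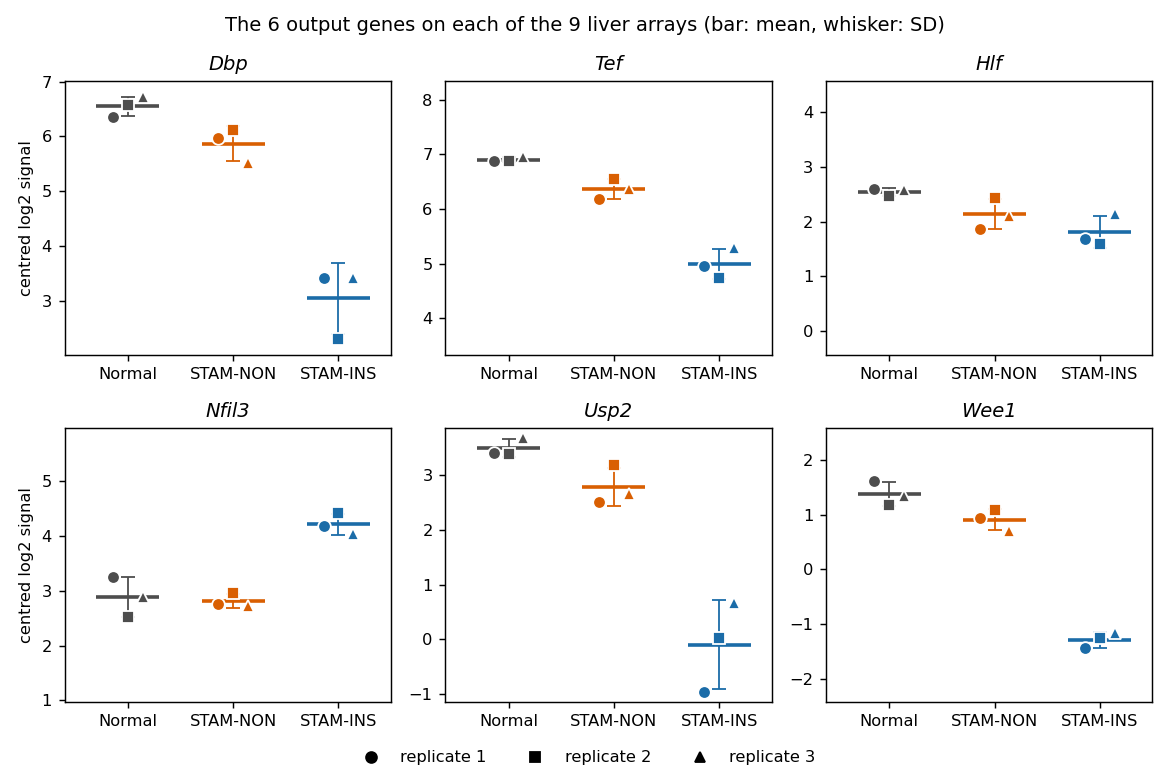
Centred log2 signal of the leading probe of each gene (vertical axes, each spanning the same number of log2 units) on the 9 arrays, by group (horizontal axes). Symbols are arrays, bars are group means and whiskers are SDs with n = 3. Dbp, Tef, Usp2 and Wee1 are lowest and Nfil3 highest in all 3 STAM-INS arrays, and the STAM groups overlap for Hlf.

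Untreated STAM livers were compared with Normal livers to see whether the disease model alone carried a difference in these genes. None of the 6 passed the threshold by limma, and 2 of 6 (Tef and Wee1) had an unadjusted p under 0.05. The share of all 26277 tested probes past the threshold was 16.1% in this comparison. All 6 differences were below 0, with a median of -0.50 against -0.13 over all tested probes. Under the alternatives the median of the 6 genes lay between -0.65 and -0.23. Tef came nearest at -0.53 (95% interval -0.90 to -0.17, limma adjusted p 0.0538), followed by Wee1 at -0.47 (-0.83 to -0.11, adjusted p 0.0739). Dbp differed by -0.68 (-1.39 to 0.03), Usp2 by -0.71 (-1.56 to 0.14), Hlf by -0.41 (-0.84 to 0.01) and Nfil3 by -0.08 (-0.51 to 0.36). Dbp, Tef, Hlf, Usp2 and Wee1 did not overlap between the groups, each lower in STAM-NON, as did 28.0% of all tested probes in that direction. Tef passed the threshold under 5 of 21 alternatives, among them without STAM-NON replicate 2 (limma adjusted p 0.0495) and without STAM-INS replicate 3 (0.0457).

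Insulin-treated STAM livers were then set against Normal livers. All 6 genes passed the threshold, with Dbp, Tef, Hlf, Usp2 and Wee1 lower and Nfil3 higher in STAM-INS. Over all tested probes 13.9% passed, 8.73% lower and 5.16% higher. No gene overlapped between these groups, and 29.0% of all tested probes lay wholly lower and 15.1% wholly higher in STAM-INS. This comparison uses the same STAM-INS arrays as the contrast that the genes were picked from, and it is not independent of that choice. The median difference of the 6 genes was -2.28 against -0.09 over all tested probes. Only 0.255% of tested probes differed by more than Usp2 in size and 0.293% by more than the leading Dbp probe, whereas 16.2% differed by more than Hlf.

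Between the STAM groups, which shared a slide, the same 6 genes had a median difference of -1.78, and the median of all tested probes was 0.03. Of all tested probes 0.0913% passed the threshold here and 0.0799% passed as lower, and no call is given for the 6 genes, since they were picked on this contrast. Dbp, Tef, Usp2 and Wee1 lay wholly lower, as did 4.92% of tested probes, and Nfil3 wholly higher, as did 7.24%. The 5 lower genes differed by -0.33 (Hlf) to -2.88 (Usp2).

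**Figure D2:**
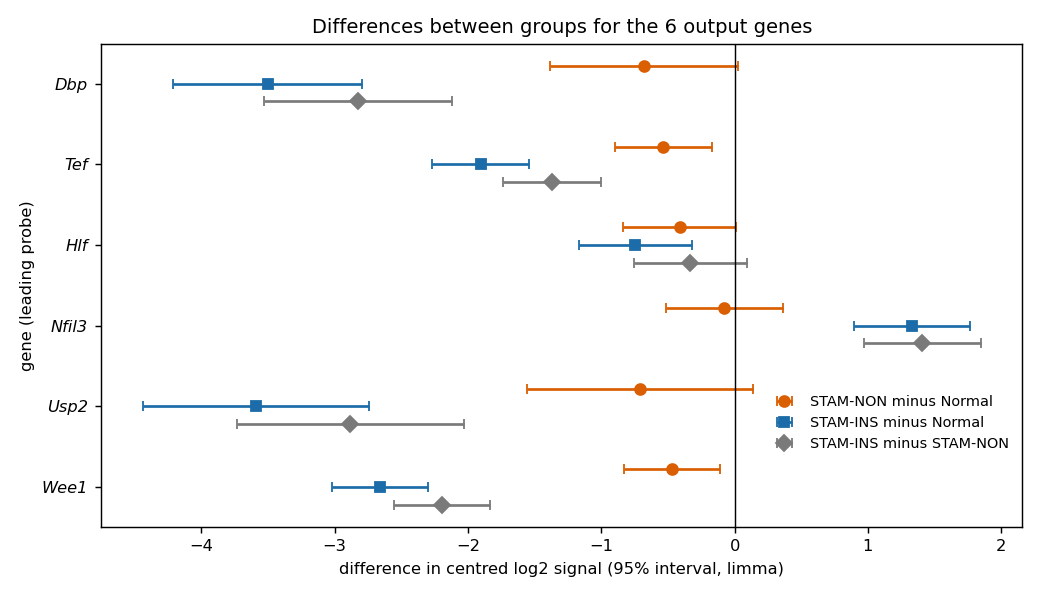
Difference in centred log2 signal (horizontal axis) for the leading probe of each gene (vertical axis) in the 3 comparisons, with 95% intervals from the limma fit. Intervals for STAM-INS minus Normal exclude 0 for all 6 genes, and those for STAM-NON minus Normal lie between -1.56 and 0.36. The intervals for STAM-INS minus STAM-NON are a description, as the genes were picked on it.

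Each slide has 2 rows of arrays. STAM-NON and STAM-INS replicate 1 lay in row 1 and the other STAM-INS arrays in row 2 of the STAM slide, and the Normal arrays lay in row 2 of their own slide. Within row 1, STAM-INS replicate 1 differed from the mean of the 3 STAM-NON arrays by -2.45 for Dbp, -1.42 for Tef, -0.45 for Hlf, 1.38 for Nfil3, -3.75 for Usp2 and -2.35 for Wee1. Within row 2, the mean of STAM-INS replicates 2 and 3 differed from the Normal mean by -3.69, -1.88, -0.69, 1.35, -3.16 and -2.58 for the same genes. Both sets of values are descriptions, since the first rests on 1 STAM-INS array in the contrast that the genes were picked on and the second sets arrays of different slides against each other. With the row as a block, Hlf no longer passed against Normal (limma adjusted p 0.0915).

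Across the 9 arrays the PAR bZIP factors and both other outputs ran together and Nfil3 ran against them. Pearson's r with the leading Dbp probe was 0.98 for Tef, 0.97 for Wee1, 0.94 for Usp2, 0.81 for Hlf and -0.93 for Nfil3. The arrays form 3 groups that differ in level, so these values carry the gap between STAM-INS and the rest, and they are given with no test. Among 12826 other named genes, those most like Dbp by the same measure were Nr1d2 (0.98), which encodes the clock repressor Rev-erb beta, Apobec3 (0.98), a cytidine deaminase of antiviral defence, Por (0.97), which passes electrons to cytochromes P450, and the clock repressors Cry2 (0.97) and Per3 (0.96). Most opposed were Arntl (-0.98), the transcription repressor Etv6 (-0.97), Lgalsl (-0.96), Trim2 (-0.95) and Ctsc (-0.95), a lysosomal protease. Their sizes differed: the difference between STAM-INS and Normal was 3.40 for Arntl, but -0.41 for Apobec3 and 0.46 for Etv6.

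Of the core clock list (17 genes), 14 could be tested, and Npas2, Cry1 and Bhlhe41 were too dim. Against Normal, 2 of 14 were higher and 6 lower in STAM-INS, where 5.16% and 8.73% of all tested probes passed in these directions. Nothing is read from these counts, since the list was chosen with earlier results of these data known. In STAM-NON 0 of 14 passed by limma and 5 had an unadjusted p under 0.05, and 1 passed without STAM-NON replicate 2. After normexp background correction 3 passed in STAM-NON, and 1 did with only probes well above background on all arrays or with a trend and robust fit. With no filter on dim probes 4 passed in STAM-INS, and 6 did with only probes well above background on all arrays, which leaves out Per3 and Ciart. Without Normal replicate 1, 5 of the 14 passed between STAM-INS and Normal. Arntl, the activator, read -1.97, -2.08 and -2.86 in Normal, -1.90, -1.69 and -1.21 in STAM-NON, and 1.24, 1.20 and 0.83 in STAM-INS, which makes it 10.5-fold higher in STAM-INS than in Normal (limma adjusted p 0.00173). Per2, a repressor of the loop, was 2.30-fold lower (limma adjusted p 0.0139). Ciart, a repressor of Clock and Arntl, stayed below the detection flag on all 3 STAM-INS arrays. It was tested only because the other groups measured it, so its calls rest on signals near background in STAM-INS. Its STAM-INS level was at least 10.7-fold below Normal. That bound sets the Normal mean against the dimmest spot flagged well above background on each STAM-INS array, or the probe's signal where that was higher. Per3 fell by 3.09, and only 1 of 3 STAM-INS arrays measured it above background. Over the list, the median difference from Normal was -0.04 for STAM-NON and -0.69 for STAM-INS. Between the STAM groups 3 of the 14 genes passed, against 0.0913% of all tested probes, with Arntl higher and Per3 and Ciart lower. The list was chosen with earlier results of these data known, so nothing is read from that count. With no filter, with either block, or without STAM-NON replicate 2 or STAM-INS replicate 3, 1 passed. The count was also 1 with only probes well above background on all arrays, a filter that removes Per3 and Ciart from the test.

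**Figure D3:**
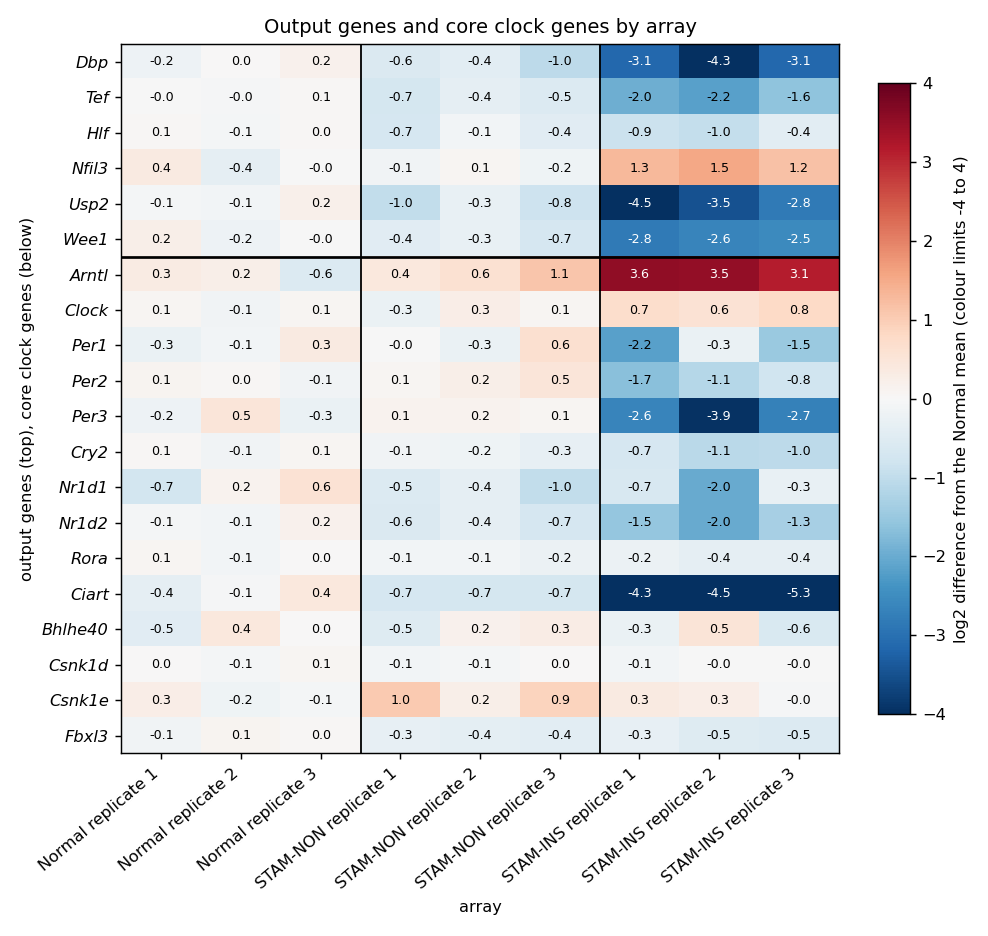
Log2 difference of each array (columns) from the Normal mean for the 6 output genes (above the line) and the 14 tested core clock genes (below it), with colour limits of -4 and 4. Dbp, Tef, Usp2 and Wee1 are blue and Nfil3 and Arntl red in all 3 STAM-INS columns. Ciart was not well above background in STAM-INS, and Per3 was on 1 of 3 arrays there, so those cells hold signals near background.

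Genes known as targets of the PAR bZIP factors in liver stood mostly below Normal in both STAM groups. These are genes of drug and lipid metabolism, and 13 of 14 were tested. In STAM-NON, 4 of 13 passed, all lower (Por, Nr1i3, Cyp2c37 and Cyp2c50), against 9.76% of all tested probes that passed as lower. The same 4 passed in STAM-INS, again all lower, against 8.73% of all tested probes. By limma, 5 of 13 had an unadjusted p under 0.05 in STAM-NON and 11 in STAM-INS. Por read 7.53, 7.28 and 7.30 in Normal, 6.95, 6.82 and 6.36 in STAM-NON, and 5.37, 5.20 and 5.64 in STAM-INS. Its differences from Normal were -0.66 in STAM-NON (limma adjusted p 0.0456) and -1.97 in STAM-INS (0.00185), and it followed the order of Dbp. Nr1i3, the receptor CAR that senses drugs and bilirubin, differed by -0.81 in STAM-NON and -1.06 in STAM-INS. The cytochromes Cyp2c37 (-1.97 and -1.96) and Cyp2c50 (-1.88 and -1.81) were as low in STAM-NON as in STAM-INS, with differences between the STAM groups of 0.0020 and 0.07. These 2 genes are close relatives, and a probe for one may also bind the other.

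The remaining targets did not pass in either comparison with Normal. Cyp2b9 and Cyp2b10, cytochromes of the Cyp2b family, had the widest spread. In STAM-NON, Cyp2b9 read 3.26, 0.76 and -1.15 and Cyp2b10 read 7.09, 4.34 and 2.46, with STAM-NON replicate 1 the highest of all arrays for both. Medians of the 13 targets were -0.46 in STAM-NON and -1.16 in STAM-INS against Normal, and -0.73 between the STAM groups, where 0 passed by limma and 3 had an unadjusted p under 0.05. Counts against Normal moved with the setting and with single arrays. With no filter on dim probes they were 0 in STAM-NON and 1 in STAM-INS. In STAM-NON, 2 passed with E1A centring (on the spike-in controls) or the replicate block and 0 with the slide row as a block. Between the STAM groups 1 passed with quantile normalisation, the percentile over detected probes or a trend and robust fit. In STAM-NON the count was 2 without STAM-NON replicate 1 or Normal replicate 1, and 1 without Normal replicate 2 or 3. In STAM-INS it was 1 without STAM-INS replicate 2, 8 without STAM-NON replicate 3, and 11 when the 2 groups were fitted alone.

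Among 9 other rhythmic liver outputs, 0 passed in STAM-NON by limma (2 with an unadjusted p under 0.05), against 16.1% of all tested probes, and 3 passed in STAM-INS, all lower, against 8.73%. These were Coq10b (-1.60), which serves coenzyme Q in mitochondria, Gys2 (-1.21), the liver glycogen synthase, and Nampt (-0.91), which makes the precursor of NAD. Without STAM-INS replicate 2, or with no filter on dim probes, 1 of the 9 passed. Elovl3, a fatty acid elongase with a strong daily rhythm in liver, read 2.59 to 3.86 in Normal, -0.74, 2.79 and -0.67 in STAM-NON and 2.79, 1.61 and 3.80 in STAM-INS, so that 2 STAM-NON arrays stood far below all others. Avpr1a, the vasopressin receptor of hepatocytes, and Noct, a rhythmic phosphatase, did not pass, with differences between the STAM groups of 2.07 and -0.99. Of the C/EBP relatives, bZIP factors outside the PAR family, 0 of 4 passed in any comparison by limma, and 0 had an unadjusted p under 0.05. Their median difference between STAM-INS and Normal was -0.21.

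Wee1 acts on the switch that lets Cdk1 start mitosis, and the other genes of that switch were described beside it. All 7 tested genes (of 9) were above Normal in both STAM groups, by a median of 1.36 in STAM-NON and 1.33 in STAM-INS. In STAM-NON, Ccnb1 (2.28), the cyclin partner of Cdk1, which was well above background on 1 of 3 Normal arrays, and Cdc25b (1.36), the phosphatase that undoes the work of Wee1, passed, against 6.30% of all tested probes that passed as higher. In STAM-INS, where 5.16% of all tested probes passed as higher, Ccnb1 (2.57, against the same Normal arrays), Plk1 (2.63), a kinase that marks Wee1 for destruction, and Pkmyt1 (1.91), the sister kinase of Wee1, passed, while Wee1 itself differed by -2.66. Pkmyt1 read -0.75, -2.04 and -1.07 in Normal, 0.25, -0.58 and 0.59 in STAM-NON and 0.12, 1.23 and 0.52 in STAM-INS, so the STAM groups overlapped. No gene of the switch passed between the STAM groups by limma, and 0 had an unadjusted p under 0.05. These calls rested on few arrays. The STAM-INS count of 3 fell to 0 without STAM-INS replicate 2 or Normal replicate 2 or 3, and to 1 without STAM-INS replicate 1 or Normal replicate 1. The STAM-NON count of 2 fell to 0 without any 1 of STAM-NON replicates 1 and 3, STAM-INS replicates 1 and 3 or the Normal arrays, and rose to 4 without STAM-NON replicate 2. It was 0 or 1 under 8 other alternatives, among them normexp background correction and quantile normalisation (0 with each), and 4 with a trend and robust fit, and the STAM-INS count was 0 with no filter or the replicate block and 1 with the slide row as a block.

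**Figure D4:**
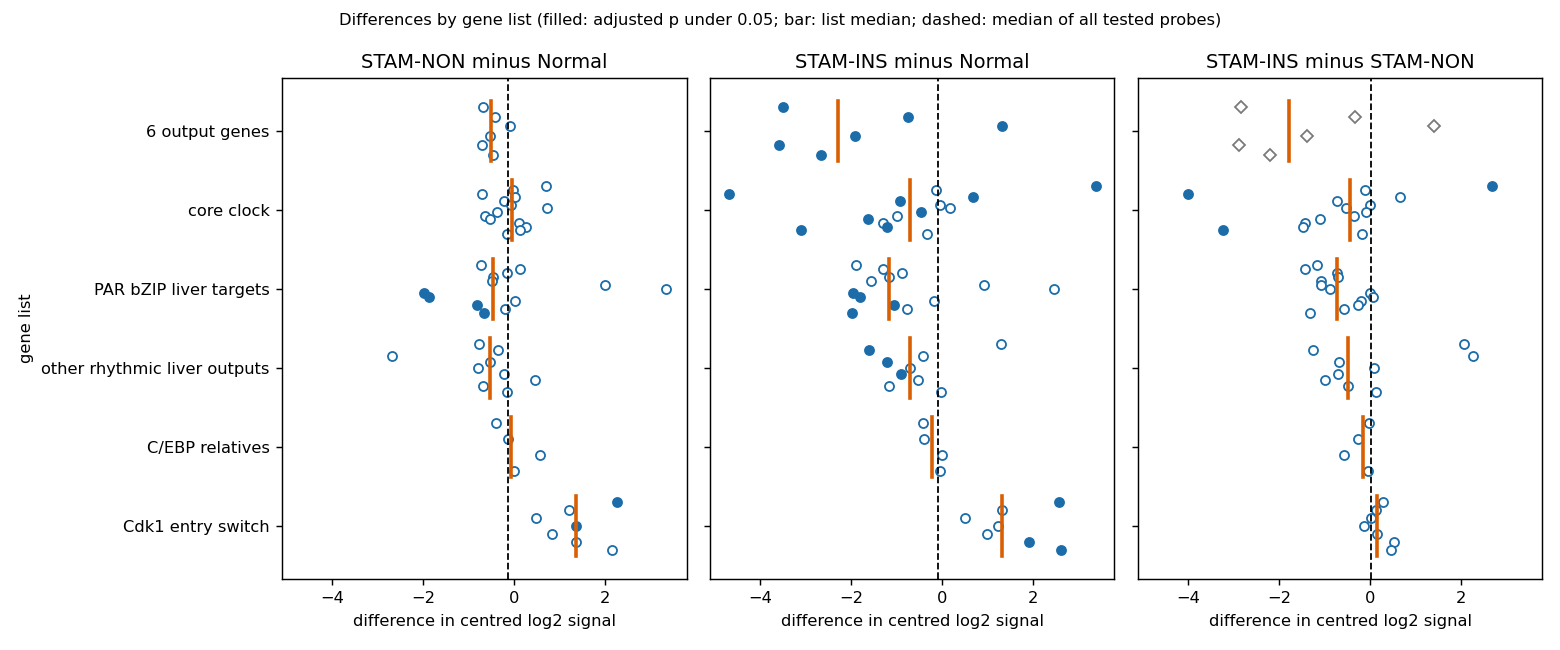
Difference in centred log2 signal (horizontal axis) for each tested gene of the lists (vertical axis) in the 3 comparisons, filled where the limma adjusted p was under 0.05. Orange bars are list medians and the dashed line is the median of all tested probes, and grey diamonds are the 6 genes in the contrast they were picked on. The median of the 6 output genes lies at -2.28 for STAM-INS minus Normal, which uses the STAM-INS arrays that the genes were picked on, so its place among the lists is no result.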

How the data were processed

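Per the labels, total liver RNA of 9 male mice was labelled with Cy3 and hybridised to SurePrint G3 mouse arrays, 1 mouse per array. The deposited files hold the scanner output of Agilent Feature Extraction 11.5.1.1, with a background-subtracted linear intensity per spot, not normalised between arrays by the authors. The array design used mm9. For RNA extraction the labels and the study's methods name different kits. From these intensities, log2 values were computed, centred on the 75th percentile of the 59305 non-control spots, outlier spots (161 to 217 per array) were left out and spots of 1 probe averaged. Tests were limited to the 26277 probes with a share of 0.5 or more of spots flagged well above background on all 3 arrays of 1 or more groups. Accessions matched to a RefSeq table (GRCm38.p6) named 27656 of 55681 probes. The table served for names only, and gene coordinates are given for the promoter sequences alone.

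Groups were fitted together with limma 3.58.1 (R 4.3.3, lmFit and eBayes, two-sided, 6 residual degrees of freedom), with Benjamini-Hochberg adjustment over all tested probes and a threshold of 0.05. The number of arrays limits the precision. Nothing says more of the replicates than that they are separate mice. The leading probe of a gene is the tested one with the highest mean. The 6 genes, the gene lists, the tests and the naming rule were chosen with earlier results of these data known. Named are the 6 genes, of each list the 4 genes with the largest difference between STAM-NON and Normal or between the STAM groups, and the 5 genes most and least correlated with Dbp. Nr1i3, Gys2 and Nampt were named after their values were seen, as genes past the threshold. The markers Clec4f, Cd5l, Cps1, Sox9 and Krt7 were singled out in the same way. One gene of the core clock list is not reported here. Alternatives covered background correction, scaling, filters, the fit, blocks and leaving out each array. A block for slide or scan could not be fitted, since all Normal arrays lay on their own slide.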

Additional observations from a re-analysis of the deposited data

How the results depend on the processing

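Dbp, Tef, Nfil3, Usp2 and Wee1 kept their direction and stayed past the threshold between STAM-INS and Normal under all 21 alternatives run for each (22 for Dbp), and Hlf kept its direction and lost the threshold under 8 of 21. That comparison uses the STAM-INS arrays that the genes were picked on, so these calls are not independent of that choice under any setting. The number of the 6 genes past the threshold was 5 to 6 for STAM-INS against Normal. For STAM-NON against Normal it was 0, or 1 (Tef) after normexp background correction, with only probes well above background on all arrays, and with a trend and robust fit, and it was 0 to 1 when 1 array was left out. Their median for STAM-INS minus Normal was -1.91 after normexp. In STAM-NON minus Normal, Usp2 was 0.60 with the slide row as a block, where these groups are linked only through STAM-INS, and Nfil3 was above 0 with quantile normalisation (0.08), with the percentile over detected probes (0.10), with E1A spike-in centring (0.08) and without Normal replicate 1 (0.10), and neither passed. Scaling moved the median of all probes in that comparison from -0.13 to 0.02 (E1A), 0.04 (detected probes) or -0.29 (array median), and calls from 1655 higher and 2565 lower to 1571 and 718 (E1A), 2152 and 978 (detected probes), 1539 and 1425 (quantile) or 1316 and 3380 (normexp). For STAM-INS against Normal, 1356 higher and 2294 lower became 1739 and 1240 with detected probes. The cause of these changes was not tested.

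Numbers of probes past the threshold were, for STAM-NON against Normal, STAM-INS against Normal and between the STAM groups, 4220, 3650 and 24. They were 250, 572 and 7 with no filter, 2016, 1872 and 6 with the replicate block, 15, 2157 and 13 with the slide row as a block. E1A centring gave 2289 and 2128 in the comparisons with Normal, fitting only the 2 groups gave 2180 for STAM-NON against Normal and 8 between the STAM groups, and testing only probes well above background on all arrays gave 6 between the STAM groups. Leaving out 1 array gave 940 to 5817, 1038 to 4326 and 10 to 105. Deviations from the group means correlated between -0.29 and 0.15 for mice of different groups with the same replicate number. For mice with different numbers the range was -0.19 to 0.28. These values cannot settle whether the numbers pair mice. With the replicate block, 5 of the 6 genes passed for STAM-INS against Normal (not Hlf, adjusted p 0.0686) and 0 for STAM-NON. A scan date block could not be fitted.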
